A study of Homo sapiens with 12 samples.

Results

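The genes of cholesterol and fatty acid synthesis were followed in 2 RNA-seq experiments on prostate cancer cells in which MUC1-C was silenced or overexpressed. Members were 31 genes listed by symbol for what they are known to do, a list drawn up with earlier results of these data known. They comprised 18 enzymes of the route from acetyl-CoA to cholesterol, 8 enzymes of fatty acid synthesis, elongation and desaturation, and 5 genes for the control and carriage of sterols. All 31 were listed in both count tables, which held 28008 and 25435 genes, and all 31 passed the filter on low counts in both experiments.

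Cholesterol is built from acetyl-CoA through mevalonate and squalene, while long fatty acids are built from malonyl-CoA and are then elongated and desaturated. Both routes are transcribed under the control of sterol regulatory element-binding proteins, which SCAP escorts out of the endoplasmic reticulum when sterols are low and INSIG proteins hold there when sterols are abundant. Prostate cancer cells are known for active lipid synthesis that responds to androgen.

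LNCaP is an androgen-dependent line from a prostate cancer metastasis, and LNCaP-ER is its derivative selected for growth in enzalutamide, an androgen receptor inhibitor. In the silencing experiment, LNCaP-ER cells carrying a doxycycline-inducible MUC1 shRNA (tet-MUC1shRNA) received vehicle or 500 ng/mL doxycycline (DOX) for 7 days, so that both groups carried the shRNA and no group without it received DOX. In the overexpression experiment, LNCaP/MUC1-C OE cells, which express MUC1-C from a vector with a CMV promoter, were set against LNCaP cells. The labels call the LNCaP controls wild-type while the headers of their columns call them vector, so whether they carried an empty vector is not settled. Each of the 4 groups had 3 libraries from cells grown in triplicate, and the p-values measure the spread between these libraries.

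Total counts per library were 28045894 to 45807989 in the silencing experiment and 13806856 to 19208944 in the overexpression experiment. MUC1, the targeted gene, was counted 26, 10 and 13 times in the vehicle libraries and 3, 42 and 8 times in those labelled DOX. These counts are low, and whether the label of DOX replicate 2 is right was not tested. Directions below are those of the libraries labelled DOX. By its MUC1 count the library labelled DOX replicate 2 showed no silencing. For TM7SF2 and FADS1 it lay with the other libraries labelled DOX, and for SCD it stood apart from them. It also stood apart in its low counts, with 11.2% of genes at 0 against 28.0% to 38.1% in the other 5 libraries. In the overexpression experiment MUC1 was counted 25 to 31 times in the LNCaP libraries and 9168 to 12622 times in those of LNCaP/MUC1-C OE cells. Luminal prostate markers were present in LNCaP-ER cells, where the 9 genes of the list summed to 4687 to 5079 CPM with vehicle and 5487 to 5912 CPM with DOX. With DOX 5 of 9 were called higher and 1 lower, beside 12.8% and 14.5% of all genes tested. CPM are counts scaled by library size (counts-per-million) with edgeR's TMM factors. In LNCaP cells the same list summed to 354 to 369 CPM and in LNCaP/MUC1-C OE cells to 94.2 to 105 CPM. There 7 of 9 genes were called lower, beside 34.1% of all genes tested, and KLK2, KLK3 and FOLH1 were at 0 in all 3 overexpressing libraries. The part of this marker difference in the results below was not tested. Markers of fibroblasts, leukocytes and endothelial cells summed to at most 58.5, 22.9 and 7.31 CPM in any library. Among them the leukocyte list held CD68, which was called higher with DOX and lower in LNCaP/MUC1-C OE cells, while PTPRC and CD3E were at or near 0.

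The calls among sterol enzymes leaned higher with DOX and lower with MUC1-C overexpression, and those among fatty acid enzymes did not. With DOX, 8 of the 18 sterol enzymes were called higher and 1 lower, and of the 8 fatty acid enzymes none was called higher and 2 lower. A gene was called when edgeR's quasi-likelihood test gave a Benjamini-Hochberg adjusted p under 0.05 over all 14683 genes tested, and each fold change is given with its standard error (SE). Over all of those genes, 12.8% were called higher, 14.5% lower and 27.3% in either direction. In LNCaP/MUC1-C OE cells 11 of 18 sterol enzymes were called lower and 2 higher, while 3 of 8 fatty acid enzymes were called higher and 1 lower. The latter balance turned with library size only, which called 2 of them higher and 3 lower, beside 22% and 46.2% of all genes. That comparison called far more genes in general, with 33.2% of 13836 genes higher, 34.1% lower and 67.3% in either direction. Against these shares the sterol enzymes stood above the background for higher calls with DOX and for lower calls with overexpression, whereas the fatty acid enzymes called higher with overexpression stood near it. The difference between the branches was described and not tested. For a bulk culture, fewer cells of a type and less RNA per cell cannot be told apart.

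The medians gave the same order. With DOX the median log2 fold change was 0.28 over the sterol enzymes and -0.12 over the fatty acid enzymes, beside -0.02 over all genes tested. In LNCaP/MUC1-C OE cells it was -0.28 over the sterol enzymes and 0.10 over the fatty acid enzymes, beside -0.01 over all genes. The sterol median minus the fatty acid median was thus 0.40 with DOX and -0.38 with overexpression. Over the fit reported here and every alternative run it ranged from 0.26 to 0.67 with DOX and from -0.42 to -0.32 with overexpression. Its sign did not turn in any of them. A change of scaling moves both medians nearly alike, so the scaling alternatives could not have turned it. The range with DOX was set by leaving out single libraries, from 0.26 without the library labelled DOX replicate 3 to 0.67 without the one labelled DOX replicate 2.

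**Figure D1:**
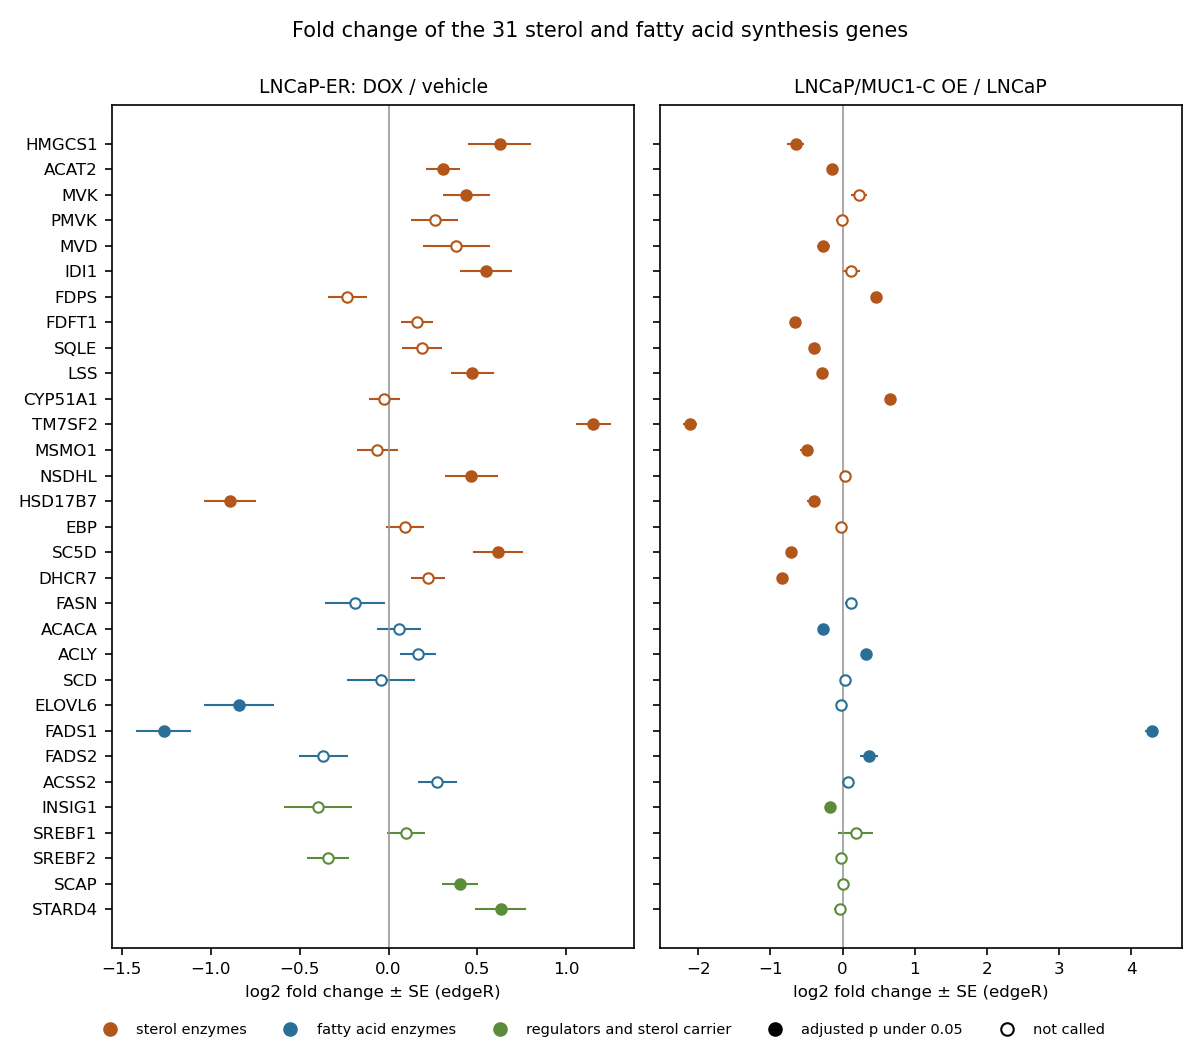
Log2 fold change (x axis) with its standard error for each of the 31 members (y axis) from edgeR, with DOX against vehicle in LNCaP-ER cells on the left and LNCaP/MUC1-C OE against LNCaP cells on the right. Filled points have an adjusted p under 0.05. TM7SF2 lies farthest to the right with DOX at 1.15 and farthest to the left with overexpression at -2.11, and FADS1 does the reverse, at -1.27 and 4.28. The x axes differ in range.

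The summed level of the sterol enzymes was 2057, 1913 and 1807 CPM in vehicle replicates 1, 2 and 3 and 2417, 2449.7 and 2330.1 CPM in the libraries labelled DOX replicates 1, 2 and 3, with no overlap. That of the fatty acid enzymes was 5482 to 6329 CPM with vehicle and 4573 to 6150.1 CPM with DOX, and these ranges overlapped. In the overexpression experiment the sterol sum was 2054 to 2157 CPM in LNCaP cells and 1639 to 1884 CPM in LNCaP/MUC1-C OE cells, again with no overlap. The fatty acid sum was 2295 to 2373 CPM in LNCaP cells and 2572 to 2665 CPM in LNCaP/MUC1-C OE cells, which did not overlap either and lay in the opposite order. The fatty acid sum in LNCaP-ER cells rested mostly on FASN and SCD, and in LNCaP cells on ACLY and SCD, by counts not divided by length. Divided by total counts with no TMM factor, the fatty acid members held 0.242% to 0.251% of the counts in LNCaP and 0.243% to 0.252% in LNCaP/MUC1-C OE libraries, which overlapped. The sterol members held 0.216% to 0.228% and 0.155% to 0.178% on that scale, still with no overlap.

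**Figure D2:**
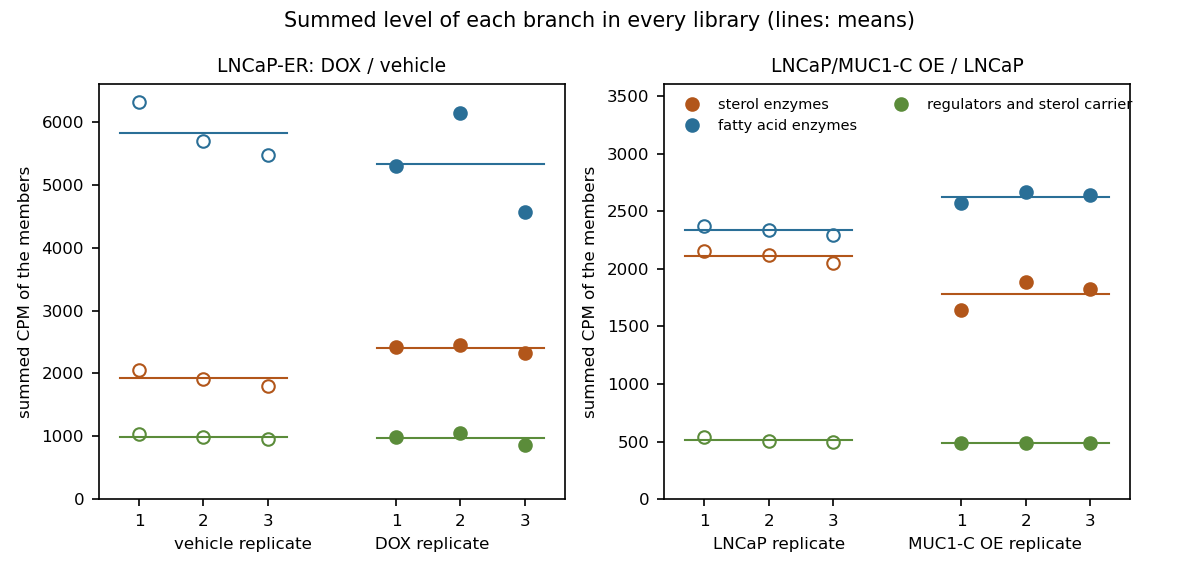
Summed CPM (y axis, from 0) of the sterol enzymes, the fatty acid enzymes and the regulators with the sterol carrier in each library (x axis, replicate number within each group), with lines at the group means. The sterol points of the libraries labelled DOX lie above those of vehicle, and the sterol points of LNCaP/MUC1-C OE lie below those of LNCaP.

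Set side by side, 7 of the 31 members were called in both experiments, a share near that of all 11682 genes tested in both, of which 21.3% were. HMGCS1, ACAT2, LSS, TM7SF2 and SC5D were higher with DOX and lower in LNCaP/MUC1-C OE cells, as were 6.63% of all genes tested in both. FADS1 was lower with DOX and higher in LNCaP/MUC1-C OE cells, as were 7.94% of all, and HSD17B7 was lower in both, as were 3.56%. No member was higher in both, and 7 were called in neither. The 2 comparisons share no libraries, but they were made in different cell lines, and no test of the relation between them was run. The 6 members with opposite calls are 5 enzymes of the sterol route and 1 desaturase.

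**Figure D3:**
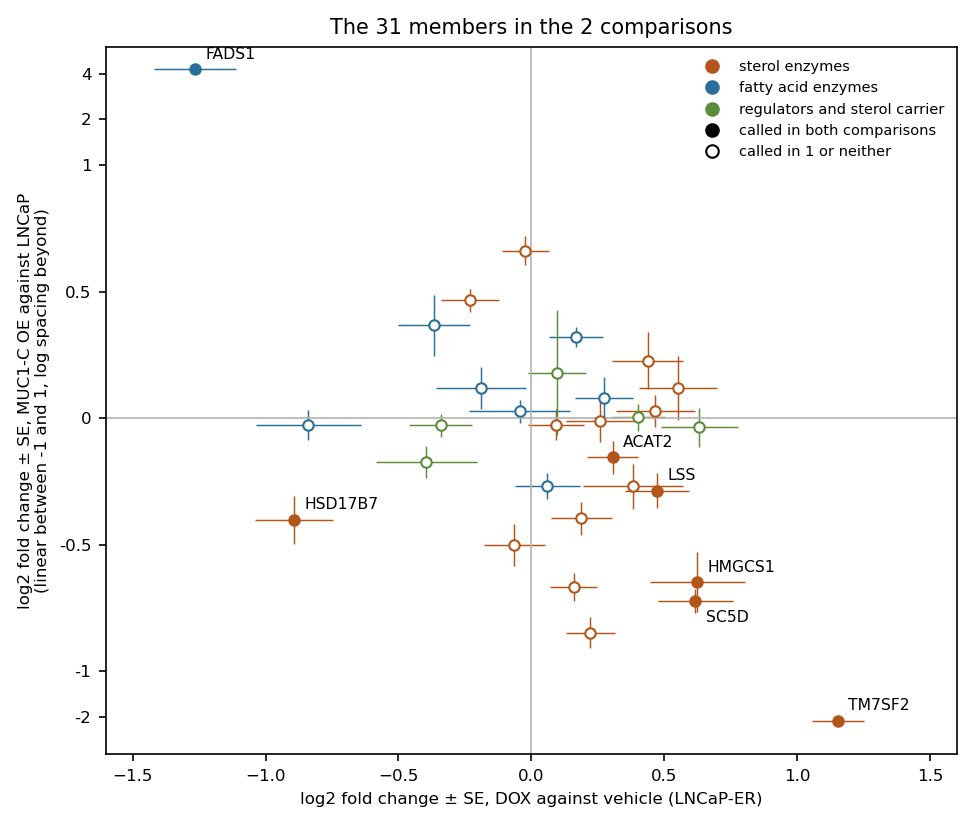
Log2 fold change with DOX (x axis) against log2 fold change with MUC1-C overexpression (y axis, linear between -1 and 1 and log-spaced beyond) for the 31 members, with standard errors from edgeR. Filled, named points were called in both comparisons. Of these, 5 sterol enzymes lie at the lower right, FADS1 at the upper left at -1.27 and 4.28, and HSD17B7 at the lower left at -0.89 and -0.40.

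The promoters of members called in both experiments are shown by the stretch around their CCAAT box, the motif bound by NF-Y, a factor known to work beside sterol regulatory element-binding proteins. Windows of 300 bases around a RefSeq start (250 before and 50 after) on GRCh38.p14 were found for 27 of the 31 members, and ACAT2, FDFT1, SQLE and FASN were not matched. Each line gives 30 bases on the gene's strand from the first window listed for the gene, 5′ to 3′, around a CCAAT box in capitals. The box is the nearest to the start among those whose 30 bases lie wholly before it, so boxes closer to the start or past it are not shown. All read ATTGG, which is CCAAT on the opposite strand. HMGCS1 lies at chr5:43313493-43313522 (minus strand), LSS at chr21:46228905-46228934 (minus strand), TM7SF2 at chr11:65111788-65111817 (plus strand), SC5D at chr11:121292705-121292734 (plus strand) and HSD17B7 at chr1:162790640-162790669 (plus strand).
HMGCS1: accggccgcgATTGGctgtgggagccaccg
LSS: cggcgctctgATTGGttgcgtgggcgtcgg
TM7SF2: ccgagcgccgATTGGctggtgtgctgggcc
SC5D: ccggtcgctgATTGGctggccgctccagcc
HSD17B7: gcggactgagATTGGagggatcagctcaga
The box of TM7SF2, SC5D and HMGCS1 is followed by ctg on this strand, that of LSS by ttg and that of HSD17B7 by agg. FADS1 held no CCAAT box in its window, and neither did PMVK, CYP51A1, ELOVL6, SREBF1 and SCAP in theirs. Of these, SCAP was called higher with DOX and ELOVL6 lower.

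Counting any listed start of a gene, CCAAT on either strand was found for 13 of 15 sterol enzymes, 5 of 7 fatty acid enzymes and 3 of 5 regulators, beside 39.72% of all 27305 genes with a window and 43.11% of those tested with DOX. GGGCGG, the GC box, was found for 14, 7 and 5 of them, beside 48.3% of all genes and 75.52% of those tested. CACGTG, the E-box, was found for 2 sterol enzymes (LSS and SC5D), no fatty acid enzyme and 2 regulators (INSIG1 and SCAP), beside 8.775% of all genes and 12.66% of those tested with DOX. TCACNCCAC, the core of the sterol element, was found for 1 member, SREBF2, beside 1.388% of all genes and 1.41% of those tested. It lay at position -133 from the start of this gene, a regulator of its own pathway, at chr22:41832942-41833010 (plus strand), with the core in capitals.
SREBF2: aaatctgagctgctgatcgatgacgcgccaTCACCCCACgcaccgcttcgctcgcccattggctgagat
The letters cattgg near its end hold a CCAAT box on the opposite strand as well. These matches describe letters in short windows, and the shares count genes with several starts once, if any start holds the motif.

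In the silencing experiment, the sterol enzymes called higher came from both the mevalonate steps and the steps past squalene. At the entry, ACAT2 (acetoacetyl-CoA thiolase) stood at 99.2, 88.0 and 84.8 CPM in vehicle replicates 1, 2 and 3 and at 117, 106 and 113 CPM in those labelled DOX, a log2 fold change of 0.30 (SE 0.10, edgeR adjusted p = 0.0423). HMGCS1, which makes HMG-CoA, stood at 119.7, 93.0 and 80.8 CPM with vehicle and 149, 121 and 182 CPM with DOX, a log2 fold change of 0.62 (SE 0.18, edgeR adjusted p = 0.0302). ACAT2 overlaps TCP1 and SOD2, annotated on the opposite strand, and whether the counting used strand is not stated. The groups did not overlap for either gene, although the highest vehicle and the lowest DOX library of HMGCS1 lay close together. Mevalonate kinase (MVK) went from 19.6 ± 3.02 to 26.5 ± 0.415 CPM (SD, n = 3), that is a log2 fold change of 0.44 (SE 0.13, edgeR adjusted p = 0.0389). IDI1, the isopentenyl diphosphate isomerase, stood at 146, 106 and 111 CPM with vehicle and 202, 176 and 154 CPM with DOX, a log2 fold change of 0.55 (SE 0.15, edgeR adjusted p = 0.0232). Every library labelled DOX was thus above every vehicle library for these 4 enzymes.

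Past squalene, LSS, which closes the ring to form lanosterol, stood at 84.5, 71.9 and 69.2 CPM with vehicle and 96.9, 119 and 96.9 CPM with DOX, a log2 fold change of 0.47 (SE 0.12, edgeR adjusted p = 0.0200). TM7SF2, a sterol reductase that acts on the double bond left when lanosterol is demethylated, had the strongest rise of the 31 members. It stood at 123, 113 and 108 CPM with vehicle and 233, 262 and 271 CPM with DOX, 2.22-fold higher, a log2 fold change of 1.15 (SE 0.10, edgeR adjusted p = 3.60e-04). NSDHL, which takes methyl groups from the sterol ring, went from 22.8 ± 1.45 to 31.5 ± 5.87 CPM (SD, n = 3), that is a log2 fold change of 0.47 (SE 0.15, edgeR adjusted p = 0.0469). SC5D, the desaturase of the last steps, stood at 166, 192 and 199.8 CPM with vehicle and 274, 342 and 238 CPM with DOX, a log2 fold change of 0.62 (SE 0.14, edgeR adjusted p = 0.0129). HSD17B7, a ketoreductase that works in the same demethylation complex as NSDHL, moved the other way. It stood at 51.0, 41.2 and 39.9 CPM with vehicle and 21.7, 28.0 and 21.5 CPM with DOX, a log2 fold change of -0.89 (SE 0.15, edgeR adjusted p = 0.00345). The libraries of the 2 groups did not overlap for any of these 5 genes.

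The other 9 sterol enzymes did not pass the test with DOX. PMVK and MVD, the kinase and decarboxylase after MVK, had log2 fold changes of 0.26 and 0.38. FDPS, which makes farnesyl diphosphate, had one of -0.23. FDFT1 and SQLE, which make squalene and its epoxide, had 0.16 and 0.19. CYP51A1, the lanosterol demethylase, and MSMO1, a methyl sterol oxidase, stood at -0.02 and -0.06. EBP, a sterol isomerase, and DHCR7, which reduces the last double bond on the way to cholesterol, had 0.09 and 0.22. Across all 18, the groups did not overlap for 11 higher and 1 lower, beside 21.2% and 23% of all genes tested. PMVK, FDFT1 and DHCR7 were separated in this way without being called.

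The count of called sterol enzymes depended on single libraries, as did that of all genes. It was 3 (2 higher and 1 lower) without vehicle replicate 2 or without vehicle replicate 3, 4 (3 higher and 1 lower) without the library labelled DOX replicate 1, and 5 (4 higher and 1 lower) without that labelled DOX replicate 3, while it stayed at 9 without the library labelled DOX replicate 2. Calls over all genes, 4006 of 14683 in the reported fit, were 2200 of 15310 and 2002 of 15290 without vehicle replicate 2 or 3. They were 2909 of 15101, 5243 of 14848 and 2067 of 15064 without the libraries labelled DOX replicate 1, 2 or 3. TM7SF2 and SC5D passed the threshold in each of 15 alternatives, LSS in 12, HMGCS1 and IDI1 in 11, and ACAT2, MVK and NSDHL in 10. HSD17B7 passed it in 12 and missed it on the 3 fits of the deposited TPM.

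**Figure D4:**
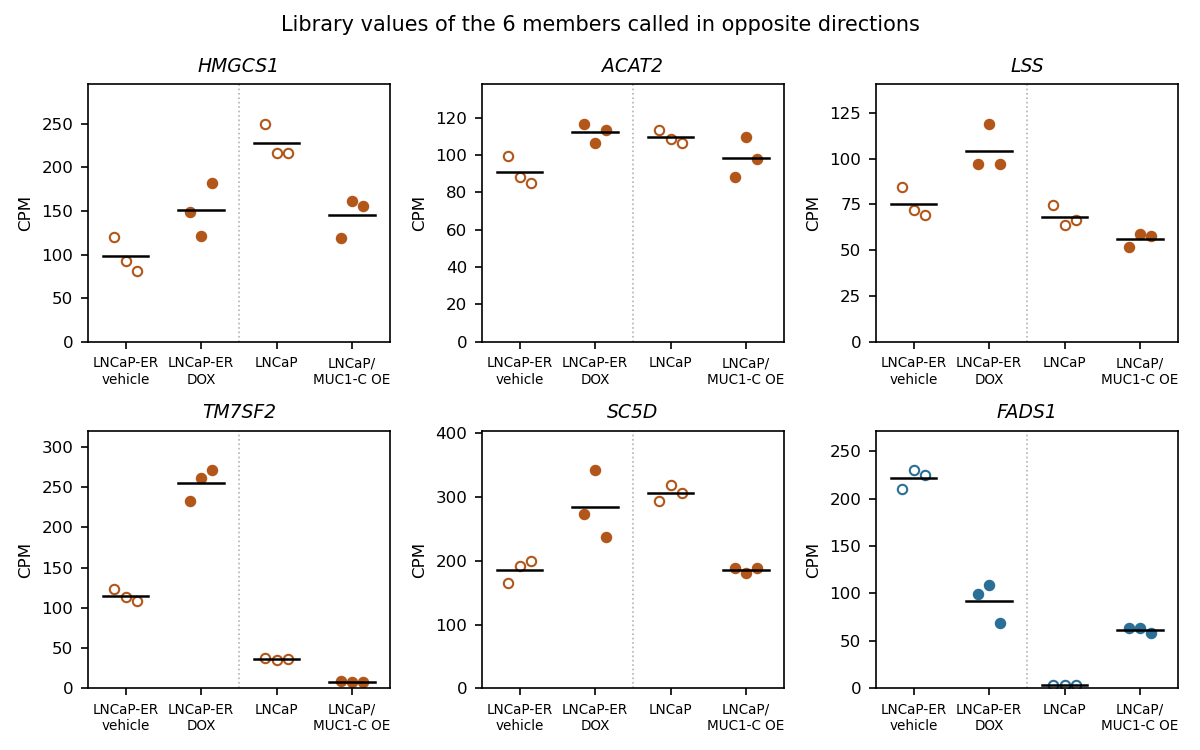
CPM (y axis, from 0) of the 6 members called in opposite directions, with 1 point per library for LNCaP-ER vehicle, LNCaP-ER DOX, LNCaP and LNCaP/MUC1-C OE (x axis) and a bar at each group mean. The dotted line parts the 2 experiments, which were scaled separately. FADS1 stands near 3 CPM in all 3 LNCaP libraries and at 58.3 to 63.3 CPM in those of LNCaP/MUC1-C OE.

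Fatty acid enzymes called with DOX were both lower and act on chains that have already been made. FADS1, the desaturase that forms arachidonic acid, stood at 210.0, 229.8 and 225 CPM in vehicle replicates 1, 2 and 3 and at 99.3, 108 and 69.1 CPM with DOX, a log2 fold change of -1.27 (SE 0.16, edgeR adjusted p = 0.00116). ELOVL6, which lengthens palmitate, stood at 145, 96.2 and 91.3 CPM with vehicle and 64.5, 72.1 and 49.3 CPM with DOX, a log2 fold change of -0.84 (SE 0.20, edgeR adjusted p = 0.0146). The call of ELOVL6 was lost in 4 of 15 alternatives, those without the library labelled DOX replicate 3 (edgeR adjusted p = 0.0600) and on the 3 fits of TPM. Neither gene had overlapping groups, and vehicle replicate 1 stood well above the other vehicle libraries for ELOVL6. FADS2, the partner of FADS1 at the start of the same series, stood at 701, 624 and 568 CPM with vehicle and 474, 575 and 419 CPM with DOX, a log2 fold change of -0.37 (SE 0.14, edgeR adjusted p = 0.0764). Its groups overlapped through 1 library, and it passed the threshold with DESeq2 (adjusted p = 0.0366) and without the library labelled DOX replicate 2. FADS1 and FADS2 lie on opposite strands of chromosome 11 with overlapping annotated transcripts, and whether the counting used strand is not stated.

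The remaining enzymes of the fatty acid route did not pass the test with DOX either. FASN, the fatty acid synthase, was at 2041 ± 265 and 1792 ± 372 CPM (SD, n = 3), and SCD, which makes oleate, at 1438 ± 56.5 and 1395 ± 427 CPM, with log2 fold changes of -0.19 and -0.04. The library labelled DOX replicate 2 stood apart for SCD, with 1887 CPM against 1171 and 1126 CPM in the other libraries labelled DOX. ACACA, which makes malonyl-CoA, and ACLY and ACSS2, which make acetyl-CoA from citrate and acetate, had log2 fold changes of 0.06, 0.17 and 0.27. At an unadjusted edgeR p under 0.05 ACSS2 alone of the 8 would count as higher. DESeq2 called none of them higher, and library size only called ACSS2. Without the library labelled DOX replicate 2, the number of fatty acid enzymes called rose from 2 to 4, with FADS2 lower and ACLY higher, and the median over the 8 enzymes was -0.30. Leaving out that labelled DOX replicate 3 gave a median of 0.01 and 1 enzyme was called. Calls over all genes moved in the same order, from 4006 to 5243 without DOX replicate 2 and to 2067 without DOX replicate 3.

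Of the regulators, SCAP, the escort of the sterol regulatory element-binding proteins, stood at 98.2, 116 and 108 CPM with vehicle and 150.4, 129 and 145 CPM with DOX, a log2 fold change of 0.40 (SE 0.10, edgeR adjusted p = 0.0186). STARD4, a soluble carrier of cholesterol, stood at 55.5, 59.3 and 53.0 CPM with vehicle and 81.7, 107 and 71.5 CPM with DOX, a log2 fold change of 0.63 (SE 0.14, edgeR adjusted p = 0.0130). Both were higher in every library labelled DOX. Thus 2 of the 5 regulators were called higher and none lower, beside 12.8% and 14.5% of all genes tested. SREBF2, which encodes the factor that acts mainly on sterol genes, stood at 227, 264 and 263 CPM with vehicle and 185, 229 and 181 CPM with DOX, a log2 fold change of -0.34 (SE 0.12, edgeR adjusted p = 0.0603). SREBF1, whose product acts mainly on fatty acid genes, stood at 371, 312 and 299 CPM with vehicle and 368, 355 and 327 CPM with DOX, a log2 fold change of 0.10 (SE 0.11, edgeR adjusted p = 0.542). INSIG1, a retention protein that is itself induced when sterols are low, stood at 288, 246 and 228 CPM with vehicle and 207, 237 and 135 CPM with DOX, a log2 fold change of -0.40 (SE 0.19, edgeR adjusted p = 0.155). The last 3 genes had overlapping groups and were not called. Without the library labelled DOX replicate 2, SREBF2 and INSIG1 passed as lower with log2 fold changes of -0.42 and -0.54, so that 4 of 5 regulators were called. That fit also called more of all genes, 5243 of 14848 against 4006 of 14683 in the reported fit. SREBF2 also passed as lower with DESeq2 (adjusted p = 0.0396) and without vehicle replicate 1 (edgeR adjusted p = 0.0429). Without vehicle replicate 3 no regulator was called, and 1 was without the library labelled DOX replicate 1 or 3. Those fits called fewer of all genes, 2002, 2909 and 2067.

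In LNCaP/MUC1-C OE cells, the fall in the sterol enzymes was led by TM7SF2. It stood at 37.5, 35.2 and 36.2 CPM in LNCaP replicates 1, 2 and 3 and at 9.67, 8.03 and 7.53 CPM in LNCaP/MUC1-C OE replicates 1, 2 and 3, a log2 fold change of -2.11 (SE 0.09, edgeR adjusted p = 2.53e-12). DHCR7 stood at 105, 107 and 98.9 CPM in LNCaP and 55.3, 54.2 and 63.1 CPM in LNCaP/MUC1-C OE cells, a log2 fold change of -0.85 (SE 0.06, edgeR adjusted p = 1.88e-09). SC5D, which acts just before it, stood at 294, 319 and 307 CPM in LNCaP and 188, 181 and 189 CPM in LNCaP/MUC1-C OE libraries, a log2 fold change of -0.72 (SE 0.05, edgeR adjusted p = 4.22e-10). These 3 genes did not overlap between groups, and their libraries differed little within a group.

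Earlier in the route, FDFT1, which commits farnesyl diphosphate to squalene, stood at 269.9, 267 and 257 CPM in LNCaP and 153, 177 and 171 CPM in LNCaP/MUC1-C OE cells, a log2 fold change of -0.67 (SE 0.05, edgeR adjusted p = 6.51e-09). HMGCS1 stood at 249.9, 217 and 216 CPM in LNCaP and 119, 161 and 155 CPM in LNCaP/MUC1-C OE libraries, a log2 fold change of -0.65 (SE 0.12, edgeR adjusted p = 0.00203). LSS stood at 74.8, 63.7 and 66.4 CPM in LNCaP and 51.7, 58.8 and 57.8 CPM in LNCaP/MUC1-C OE libraries, a log2 fold change of -0.29 (SE 0.07, edgeR adjusted p = 0.00151). All 3 were lower in each overexpressing library. ACAT2, at 114, 109 and 106 CPM in LNCaP and 88.1, 109.6 and 97.8 CPM in LNCaP/MUC1-C OE libraries, overlapped between groups and lay close to the threshold, with a log2 fold change of -0.15 (SE 0.07, edgeR adjusted p = 0.0469), and its call was lost in 7 of 12 alternatives. SQLE, MSMO1, HSD17B7 and MVD had lower calls too, at log2 fold changes of -0.40, -0.50, -0.40 and -0.27. MVD lost its call in 2 alternatives, while the other 9 sterol enzymes called lower kept theirs in all 12.

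Against this trend, 2 sterol enzymes rose. FDPS, at the branch point where farnesyl diphosphate also feeds prenylation and dolichol synthesis, stood at 144, 147 and 139 CPM in LNCaP and 202, 199 and 193 CPM in LNCaP/MUC1-C OE cells, a log2 fold change of 0.47 (SE 0.05, edgeR adjusted p = 9.69e-08). CYP51A1 stood at 153, 148 and 148 CPM in LNCaP and 219, 259 and 233 CPM in LNCaP/MUC1-C OE libraries, a log2 fold change of 0.66 (SE 0.06, edgeR adjusted p = 1.30e-08). Both have annotated pseudogenes (named FDPSP and CYP51A1P with a number), and how shared reads were counted is not stated, which leaves these counts uncertain, like that of HSD17B7 (HSD17B7P1, HSD17B7P2). The same 2 genes had values of -0.23 and -0.02 with DOX, where neither passed. MVK, PMVK, IDI1, NSDHL and EBP were not called, with log2 fold changes of -0.03 to 0.23. Over the 18 enzymes the groups did not overlap for 2 higher and 10 lower, beside 34.4% and 35.9% of all genes tested.

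FADS1 had by far the widest change among the members in LNCaP/MUC1-C OE cells. It stood at 3.40, 3.06 and 3.01 CPM in LNCaP and 63.3, 63.2 and 58.3 CPM in LNCaP/MUC1-C OE cells, 19.4-fold higher, a log2 fold change of 4.28 (SE 0.09, edgeR adjusted p = 2.77e-16). FADS2, on the other strand of the same locus, was at 23.2 ± 2.60 and 29.9 ± 5.61 CPM (SD, n = 3), with overlapping groups and a log2 fold change of 0.37 (SE 0.12, edgeR adjusted p = 0.0158), a call lost in 3 of 12 alternatives. ACLY stood at 839.5, 838 and 819 CPM in LNCaP and 1024, 1062 and 1032 CPM in LNCaP/MUC1-C OE cells, a log2 fold change of 0.32 (SE 0.04, edgeR adjusted p = 2.05e-06). ACACA, the next enzyme of the route, stood at 174, 183 and 186 CPM in LNCaP and 139.9, 157 and 155 CPM in LNCaP/MUC1-C OE libraries, a log2 fold change of -0.27 (SE 0.05, edgeR adjusted p = 2.32e-04). The 2 neighbouring steps of the route thus moved in opposite directions. FASN, SCD, ELOVL6 and ACSS2 were not called, with log2 fold changes of 0.12, 0.03, -0.03 and 0.08.

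Of the 5 regulators, 1 was called with overexpression, as lower, beside 34.1% of all genes called lower and 67.3% called in either direction. INSIG1 stood at 254, 225 and 212 CPM in LNCaP and 191, 215 and 207 CPM in LNCaP/MUC1-C OE cells, a log2 fold change of -0.17 (SE 0.06, edgeR adjusted p = 0.0239), with groups that overlapped through 1 library and a call that was lost without LNCaP replicate 1 and without LNCaP/MUC1-C OE replicate 1 or 3. SREBF2 stood at 138, 137 and 136 CPM in LNCaP and 136, 131 and 136 CPM in LNCaP/MUC1-C OE libraries, a log2 fold change of -0.03 (SE 0.05, edgeR adjusted p = 0.601). SCAP stood at 95.2, 99.0 and 102 CPM in LNCaP and 104, 93.2 and 100.2 CPM in LNCaP/MUC1-C OE libraries, a log2 fold change of 0.00426 (SE 0.05, edgeR adjusted p = 0.951). STARD4 stood at 32.7, 29.8 and 28.8 CPM in LNCaP and 28.7, 32.4 and 28.2 CPM in LNCaP/MUC1-C OE libraries, a log2 fold change of -0.04 (SE 0.08, edgeR adjusted p = 0.705). For SCAP and STARD4 the libraries of both groups were interleaved. SREBF1 stood at 22.0, 17.3 and 19.3 CPM in LNCaP and 30.8, 17.7 and 17.9 CPM in LNCaP/MUC1-C OE libraries, where LNCaP/MUC1-C OE replicate 1 was above all others, a log2 fold change of 0.18 (SE 0.25, edgeR adjusted p = 0.553). SCAP and STARD4, called higher with DOX, were thus not called here, and the difference between the 2 experiments was not tested.

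The TM7SF2 gene, on chromosome 11, overlaps VPS51 on the same strand in the GENCODE v29 annotation, so reads in the overlap could be split by the counting. VPS51, looked up after the values of TM7SF2 were seen, had a log2 fold change of 0.14 with DOX (edgeR adjusted p = 0.455) and 0.43 with overexpression (edgeR adjusted p = 1.58e-05), the latter in the direction opposite to TM7SF2.

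Levels per length were compared between members on the deposited TPM of the silencing experiment. In vehicle libraries the highest levels were those of SCD at 167 ± 29.4 TPM, FASN at 152 ± 42.1 TPM, FADS2 at 107 ± 27.1 TPM and ACLY at 82.6 ± 11.8 TPM (mean ± SD, n = 3), and the intervals of mean ± SD of neighbours in this order overlapped. The highest sterol enzymes were FDFT1 at 56.8 ± 10.3 TPM and TM7SF2 at 52.8 ± 11.2 TPM, again within their spread. The lowest levels were those of LSS at 5.38 ± 1.38 TPM and MVD at 5.72 ± 2.35 TPM. In the libraries labelled DOX, TM7SF2 stood at 172 ± 37.1 TPM and ranked 3 among the 31 members, from 7 with vehicle, while FADS1 went from rank 15 to rank 24.

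On the TPM scale most genes called were higher with DOX. The median log2 fold change was 0.45 over all genes, against -0.02 with TMM. Branch medians are therefore given relative to that shift, while values of single genes still carry it. Relative to the median of all genes, the sterol median was 0.36 on log2(TPM + 1) and 0.30 with TMM, and the fatty acid median -0.04 and -0.10. This depended on which genes entered the median of all genes. DESeq2 and edgeR without a filter tested 18534 and 25480 genes, whose medians were 0.38 and 0.36, and relative to those the sterol median was -0.082 and -0.077. On TPM without a filter the sterol median was 0.63 and the fatty acid median 0.23 above that of all genes. On TPM, limma called 15 of 18 sterol enzymes higher and none lower, with 3 fatty acid enzymes higher and 1 lower, beside 43.2% higher and 2.25% lower among the 11404 genes tested there. FADS1 was the one called lower, a call lost without the filter (limma adjusted p = 0.176), while ELOVL6 lost its call, at a log2 fold change of -0.25 (limma adjusted p = 0.341). SREBF2, INSIG1 and FADS2, below 0 with TMM, had log2 fold changes of 0.21, 0.13 and 0.18 here and were not called on either scale. These values carry the shift and lay below the median of 0.45 over all genes. With library size only, the overexpression comparison shifted by -0.16 for all genes. Relative to that shift the sterol median was -0.27 and the fatty acid median 0.11, against -0.27 and 0.11 with TMM. A change of scaling moves all genes by nearly the same amount, so these relative values were bound to match.

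**Figure D5:**
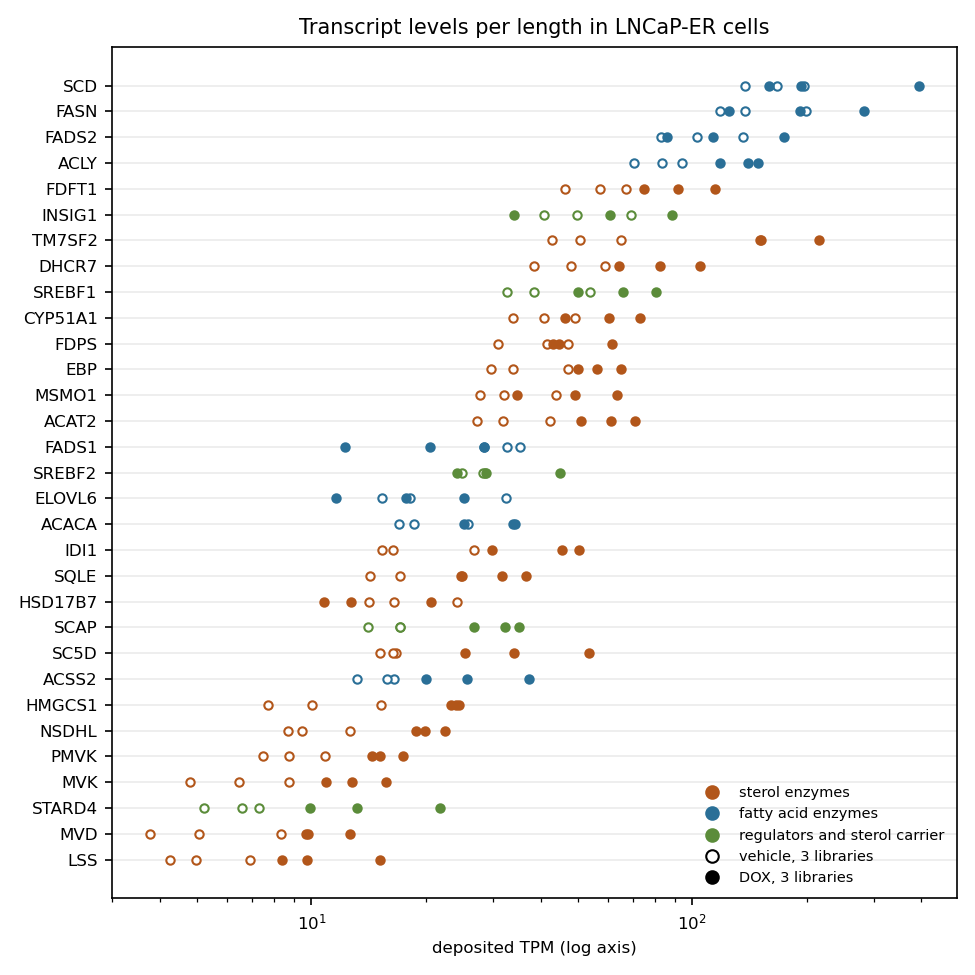
Deposited TPM (x axis, log scale) of the 31 members (y axis, ordered by their vehicle mean) in LNCaP-ER cells, with open points for the 3 vehicle libraries and filled points for the 3 libraries labelled DOX. SCD and FASN stand at the top and LSS at the bottom, and the filled points of most members lie to the right of the open ones, as for genes in general on this scale.

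Divided by total counts alone, the tables of the 2 experiments gave different starting levels in LNCaP-ER and LNCaP cells, which were set side by side and not tested because the tables were made separately. FADS1 stood at 216 ± 3.91 CPM without the TMM factor (SD, n = 3) in LNCaP-ER vehicle and 3.33 ± 0.229 in LNCaP libraries, and FADS2 at 616 ± 85.6 and 24.4 ± 2.69. SREBF1 stood at 319 ± 48.5 and 20.6 ± 2.55, and FASN at 1995 ± 329 and 369.9 ± 12.5. TM7SF2 stood at 112 ± 10.9 and 38.3 ± 1.30, while CYP51A1 was at 200.4 ± 14.7 and 158 ± 3.57. How all genes split between these 2 groups was not counted, so the split of the members is not read as particular to them. Of the 31 members, 20 had the higher mean in LNCaP-ER vehicle libraries and 11 in LNCaP libraries. Among the latter, SQLE stood at 81.1 ± 14.3 in LNCaP-ER vehicle and 249 ± 7.25 in LNCaP libraries, HMGCS1 at 95.8 ± 22.8 and 239.8 ± 21.1, SC5D at 181 ± 11.7 and 323 ± 12.0, and ACLY at 547 ± 17.4 and 877 ± 12.5. The rise of FADS1 with overexpression thus started from a line with little of it and the fall with DOX from a line with much.

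Neighbouring pathways were read from lists of genes that are not members. LBR, a nuclear envelope protein that carries the same sterol reductase activity as TM7SF2, went from 144 ± 16.6 to 50.9 ± 9.73 CPM with DOX (SD, n = 3, log2 fold change of -1.50, edgeR adjusted p = 5.22e-04) and from 205 ± 1.29 to 462 ± 23.6 CPM with overexpression (log2 fold change of 1.17, edgeR adjusted p = 8.51e-13). It was thus called in the direction opposite to TM7SF2 in both experiments.

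Of all genes tested, 12.8% were called higher and 14.5% lower with DOX, and 33.2% higher and 34.1% lower with overexpression. Short lists with counts near these shares do not stand apart from genes in general. Beside the fatty acid members, for fatty acid oxidation 5 of 10 genes tested were called higher with DOX (median log2 fold change 0.49), and 2 of 10 genes tested were called higher and 3 lower with overexpression (median log2 fold change -0.02). The 3 with the smallest p with DOX were ACADVL, CPT1A and CPT2, which act in the uptake of long chains into mitochondria and the first step of their breakdown, with log2 fold changes of 0.92, 0.83 and 0.84. For fatty acid supply and elongation, 3 of 14 genes tested were called higher with DOX (median log2 fold change 0.22), and 6 of 12 genes tested were called higher and 4 lower with overexpression (median log2 fold change 0.18). ELOVL1, an elongase of very long chains, rose with a log2 fold change of 0.95 with DOX, and ELOVL2, an elongase of polyunsaturated chains, with one of 0.87 with overexpression, while ELOVL6 fell with DOX. For acyl-CoA and triglyceride synthesis, 4 of 10 genes tested were called higher with DOX (median log2 fold change 0.20), and 3 of 9 genes tested were called higher and 3 lower with overexpression (median log2 fold change -0.04). DGAT2 and DGAT1, which add the last chain to triglycerides, had log2 fold changes of 0.65 and 0.34 with DOX. PLIN2, a lipid droplet coat protein, went from 0.120 ± 0.0331 to 5.82 ± 0.481 CPM with overexpression (SD, n = 3, edgeR adjusted p = 3.05e-11).

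The next lists stand beside the same shares of all genes, 12.8% higher and 14.5% lower with DOX and 33.2% and 34.1% with overexpression. Beside the sterol members, for sterol uptake, esterification and trafficking 1 of 8 genes tested was called higher with DOX (median log2 fold change 0.27), and 4 of 8 genes tested were called higher and 4 lower with overexpression (median log2 fold change -0.04). NPC1, which exports cholesterol from lysosomes, was the one called with DOX, at a log2 fold change of 1.08, and SOAT1, which esterifies cholesterol, had 0.45 with overexpression. For efflux and the LXR receptors, 1 of 6 genes tested were called higher and 1 lower with DOX (median log2 fold change 0.02), and 2 of 6 genes tested were called higher and 3 lower with overexpression (median log2 fold change -0.22). LPCAT3, a phospholipid acyltransferase, was higher with DOX and lower with overexpression (log2 fold changes 0.68 and -0.68), while ABCG1, a sterol exporter, was lower in both (-0.65 and -1.31). For the processing and degradation of the sterol regulatory element-binding proteins, 1 of 8 genes tested was called lower with DOX (median log2 fold change -0.02), and 2 of 8 genes tested were called higher and 3 lower with overexpression (median log2 fold change -0.04). MBTPS2, the protease that frees the factors within the membrane, was lower in both (-0.75 and -0.43). For the non-sterol isoprenoid branch, 1 of 9 genes tested was called higher with DOX (median log2 fold change 0.01), and 6 of 9 genes tested were called higher and 2 lower with overexpression (median log2 fold change 0.22). GGPS1, which takes farnesyl diphosphate to geranylgeranyl diphosphate, had a log2 fold change of 0.52 with overexpression, in the same direction as FDPS.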

How the data were processed

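RNA-seq libraries of 2 experiments, with 3 libraries in each of 4 groups, were analysed, and groups and replicate numbers came from the labels. The authors deposited counts per gene symbol, as whole numbers without normalization, in 1 table per experiment, and for the silencing experiment also TPM, which the authors scaled to a fixed sum per library with gene lengths that are not stated. Per the submitters' processing notes, STAR and DESeq2 were used with GRCh38 (hg38). The annotation, the versions and the strand setting of the counting are not given in the sources used here. Of the overexpression counts, 12 further columns of per-sample values were not used. The title of the overexpressing samples holds the letters sh, which the methods do not use for these cells.

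Here, counts were filtered with filterByExpr and TMM-scaled within each experiment and fitted with edgeR 4.0.16 (glmQLFit with robust estimates, quasi-likelihood test) in R 4.3.3, with Benjamini-Hochberg adjustment over all genes tested and a threshold of 0.05. CPM are TMM-scaled. Alternatives were DESeq2 1.42.0, no filter, a minimum of 10 counts in every library, scaling by median of ratios or by library size only, the replicate number as a block, each library left out, a fold limit (absolute log2 value of 1 or more), and limma 3.58.1 on log2(TPM + 1) or log2(TPM + 0.1) with at least 1 TPM in 3 libraries or no filter. The fits were tested on simulated data. Replicate pairs differed by more than sampling noise, so each library counted once. Chi-square over its degrees of freedom was 2.20 to 7.25 in the overexpression experiment and 5.51 to 61.7 in the silencing experiment. Vehicle replicate 1 stood apart, at 48.6 against replicate 2 and 48.4 against replicate 3, while replicates 2 and 3 gave 5.51. Pairs labelled DOX gave 25.0 to 61.7. With 3 libraries per group the spread sets the precision.

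The members and lists were chosen with earlier results of these data known. Every member was named. Values of each library were given for the 6 sterol and 3 fatty acid enzymes with the smallest p in each experiment, the 5 regulators and members called in opposite directions, and at most 3 genes were named per related list. Lists were described by counts and medians, with no set test. Promoter windows came from RefSeq (GRCh38.p14) and gene overlaps from GENCODE v29. Some genes of these lists are not reported here.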

Additional observations from a re-analysis of the deposited data

How the results depend on the processing

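With DOX, the number of genes called was 2598 on TPM without a filter and 988 with a fold limit (absolute log2 value of 1 or more), and 2002 (without vehicle replicate 3) to 5243 (without the library labelled DOX replicate 2) with each library left out. Sterol members called numbered 15 on log2(TPM + 1) and on log2(TPM + 0.1), 1 with the fold limit, and 3 to 9 with each library left out. Fatty acid members called numbered 4 on both TPM scales, 1 on TPM without a filter, 1 with the fold limit, and 1 to 4 with each library left out. Regulators called numbered 1 on TPM without a filter and 0 to 4 with each library left out. The sterol median was 0.81 on log2(TPM + 1), with or without the filter, and 0.83 on log2(TPM + 0.1). The fatty acid median was -0.038 with library size only, 0.41 on each TPM fit, and -0.30 to 0.013 with each library left out. The sterol minus fatty acid median was 0.26 to 0.67 with each library left out. CYP51A1, not called in the reported fit, was higher on log2(TPM + 1) and log2(TPM + 0.1), at 0.52 and 0.53. TPM raised the median of all genes, and these values carry that shift.

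With overexpression, the fold limit left 1917 genes, 1 sterol and 1 fatty acid member. Library size only, which lowered the median of all genes, gave 4 regulators called, 2 fatty acid members higher and 3 lower, a sterol median of -0.43, a fatty acid median of -0.054, and lower calls for SCD and SCAP at -0.13 and -0.15. With each library left out, regulators called were 0 to 1 and the fatty acid median 0.077 to 0.14. Of members called, 2 of 13 with DOX kept the call in all 15 alternatives and 14 of 18 with overexpression in all 12.

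Samples with the same replicate number did not deviate together (correlations -0.07 to 0.09 with DOX and -0.15 to -0.03 with overexpression). The replicate block gave 4226 and 8965 genes called and, with DOX, 4 regulators called (INSIG1 and SREBF2 lower) and FADS2 called lower (edgeR adjusted p = 0.0360).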
